A study of Mus musculus with 7 samples.

Results

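The ERK feedback genes described here are 10 genes of 3 families that restrain signaling from growth factor receptors through the kinase ERK, namely Dusp1, Dusp4, Dusp5, Dusp6, Dusp10, Spry1, Spry2, Spry4, Spred1 and Spred2. They were taken by gene symbol from the expression table of mouse embryonic fibroblasts (MEFs) under stress, in which each stood on 1 of the 49382 rows. All 10 passed the filter on weak expression, a mean over the 7 libraries of 2 TPM or more, as did 12909 genes in total. TPM is a transcript's share of its library, corrected for transcript length and scaled to one fixed total. The MEFs were wild-type primary fibroblasts from E13.5 to E14.4 embryos, freed of head and red tissue and used at passage 3 to 7, plated at 100000 cells per well (10000 per cm2) and cultured overnight. There was 1 library of untreated control cells, and 1 library each of cells in glucose-free medium for 10 hours (glucose depletion), in glutamine-free medium for 10 hours (glutamine depletion), at 0.1% oxygen for 10 hours (hypoxia), with 1 μM thapsigargin for 10 hours (ER stress), with 10 μM sodium arsenite for 3 hours (oxidative stress) and with 100 mM added NaCl for 3 hours (osmotic stress). Thapsigargin blocks the calcium pump of the ER, arsenite reacts with thiol groups of proteins, and added NaCl draws water out of the cell. With 1 library per condition there is no spread between replicates, so no p-value is given, the order of neighboring values cannot be told from chance, and treatment cannot be told apart from culture or library.

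Growth factor receptors signal through RAS, RAF and MEK to ERK, and active ERK induces genes that shut the same pathway down again. DUSP proteins of this group are phosphatases that remove phosphate from MAP kinases. DUSP4 and DUSP5 are nuclear enzymes, DUSP6 is cytoplasmic and specific for ERK, and DUSP1 and DUSP10 act strongly on the stress kinases JNK and p38. Sprouty (Spry) proteins block the pathway between the receptor and RAF, and Spred proteins bring the RAS inhibitor neurofibromin to the membrane. Transcripts of many of these genes are short-lived, and their level is widely used as a readout of recent pathway activity. The libraries here measured RNA only, so the activity of ERK was not measured.

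The promoters of Dusp1 and Dusp5 are shown because they held the matches to binding motifs of growth- and stress-regulated factors that are least common among promoters in general. RefSeq promoter windows of 300 bases on GRCm38.p6, running from 250 bases before to 50 after a gene's start, were found for 8 of the 10 genes. Each line gives the 200 bases from -250 to -51 of the start, from 5′ to 3′ on the strand of the gene. Capitals mark the CRE (TGACGTCA, bound by CREB and ATF proteins) in Dusp1 and a pair of adjoining CArG boxes, the motif of serum response factor, in Dusp5.
Dusp1, chr17:26508523-26508722, minus strand: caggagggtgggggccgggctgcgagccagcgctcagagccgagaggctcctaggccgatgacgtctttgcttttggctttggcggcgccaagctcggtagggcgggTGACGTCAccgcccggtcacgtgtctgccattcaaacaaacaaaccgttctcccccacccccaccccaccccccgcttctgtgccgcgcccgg
Dusp5, chr19:53528895-53529094, plus strand: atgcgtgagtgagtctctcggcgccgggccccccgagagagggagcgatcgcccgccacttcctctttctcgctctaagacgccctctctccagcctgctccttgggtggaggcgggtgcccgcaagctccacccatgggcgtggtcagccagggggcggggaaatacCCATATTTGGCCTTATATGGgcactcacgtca

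On both strands, the CRE lay at -143 to -136 from the start of Dusp1, and 1.79% of the 32851 promoter windows of RefSeq held one. The CArG boxes of Dusp5 lay at -82 to -73 and -72 to -63, and 1.63% of windows held at least 1. Neither motif was in the windows of the other 6 genes with one. The CRE half-site TGACG, which lies within the CRE, was in the windows of Dusp1, Dusp5 and Spred2 and in 20.8% of all windows. The antioxidant response element core TGACNNNGC was in those of Dusp1 and Dusp5 and in 12.4%, and the hypoxia response element core, ACGTG or GCGTG, in 6 of the 8 and in 43.8%. No window of the 8 held an AP-1 site written TGANTCA (7.81% of all), an ETS site written CCGGAAG (8.86%), the ATF4 composite site TGATGNAA (3.97%) or a TATA box written TATAAA (13.6%). Other spellings of these sites, such as other ETS sites, were not searched, so their absence is not shown. A match is a run of letters, and these libraries do not measure binding.

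In oxidative stress, 8 of the 10 genes rose past 2-fold and 1 fell, whereas 3.94% of all 12909 genes rose and 4.85% fell. Here and below, a gene is said to rise or fall where its log2(TPM + 1) differed from the control by more than 2-fold, a scale that understates changes of weakly expressed genes. All 5 Dusp genes, Spry2, Spry4 and Spred2 rose, Spry1 fell, and Spred1 did neither. The median log2 change of the 10 genes was 1.43, against -0.16 over all genes. Glutamine depletion raised 7 of the 10 and lowered 0, beside 3.21% of all genes that rose and 3.21% that fell, with a median of 1.35 against -0.09. The 7 were Dusp4, Dusp5, Dusp6, Dusp10, Spry2, Spry4 and Spred2, all of which also rose in oxidative stress. Both comparisons use the same control library, and a low control value of a gene would raise it in each. With the median of the 7 libraries as reference in place of the control, 5 genes rose and 1 fell in oxidative stress and 4 rose in glutamine depletion, and the medians of the 10 genes were 0.83 and 0.53. For a gene above the control in most conditions, that median is itself the value of a treated library, which lessens its rises. Whether the control was low was therefore not tested by it. The samples were bulk RNA, in which fewer cells of a type and less RNA per cell cannot be told apart.

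Osmotic stress raised 3 of the 10 genes, Dusp1, Dusp6 and Spry2, and lowered 0, where 3.08% of all genes rose and 8.76% fell. In ER stress 1 gene rose, Spry4, and 0 fell, beside 8.60% and 11.0% of all genes, so the share of 1 in 10 was near that of genes in general. Glucose depletion raised and lowered 0 of the 10, where 1.83% of all genes rose and 2.41% fell. Hypoxia likewise raised and lowered 0, where 3.57% rose and 2.64% fell. The median change of the 10 genes was 0.46 in osmotic stress, 0.14 in ER stress, 0.05 in glucose depletion and -0.14 in hypoxia, and that of all genes was -0.12, 0.00, -0.02 and -0.05. Summed over the 10 genes, expression was 181 TPM in the control, 479 in oxidative stress, 390 in glutamine depletion, 384 in osmotic stress, 213 in ER stress, 187 in glucose depletion and 164 in hypoxia. The sum is weighted toward abundant genes. Dusp1 alone was at 44.3 TPM in the control, 175 in osmotic stress and 48.4 in glutamine depletion.

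**Figure D1:**
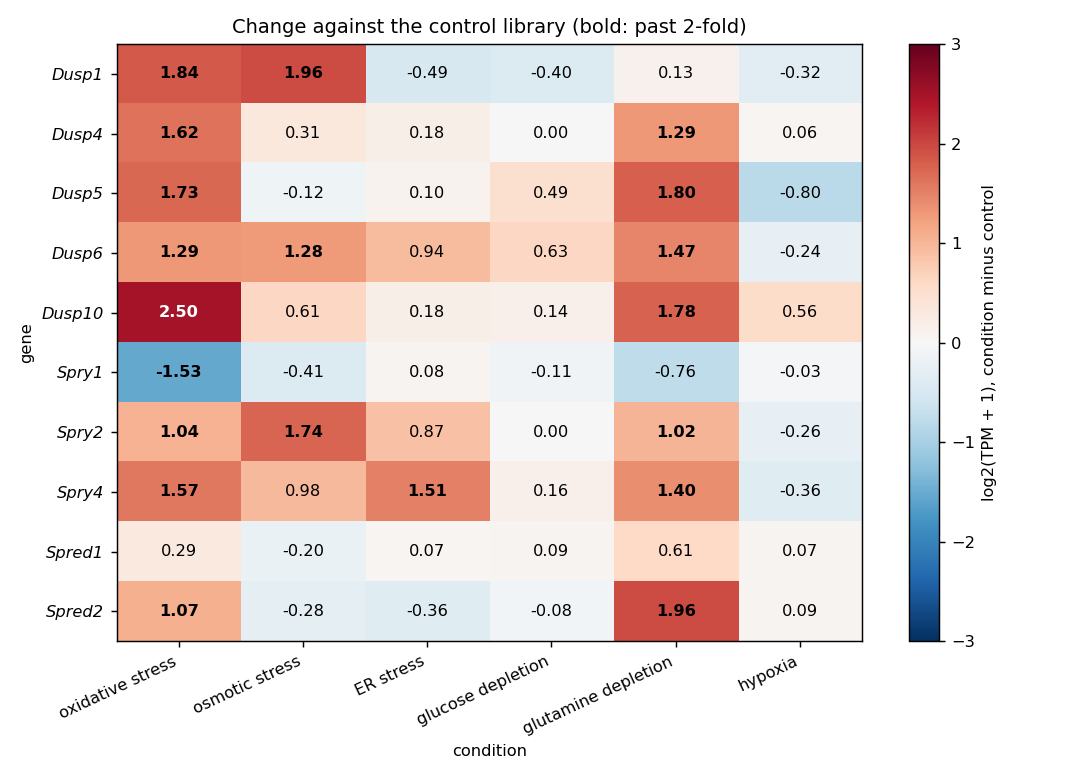
Log2 change of each gene (rows) in each condition (columns), as log2(TPM + 1) of the condition minus the control, 1 library each; bold marks changes past 2-fold. The column of oxidative stress holds 8 rises and the blue value of Spry1 (-1.53), that of glutamine depletion 7 rises, and those of glucose depletion and hypoxia none.

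Dusp1 encodes MKP-1, the founding nuclear MAP kinase phosphatase, and was the most abundant of the 10 transcripts in the control. It stood at 44.3 TPM in the control, 161 in oxidative stress, 175 in osmotic stress, 31.2 in ER stress, 35.3 in hypoxia, 33.3 in glucose depletion and 48.4 in glutamine depletion. The libraries of 3 hours were both high, and the control and all libraries of 10 hours lay between 31.2 and 48.4 TPM. Its log2 change was 1.84 with arsenite, 1.96 with NaCl and 0.13 in glutamine depletion. Dusp1 was the 1 gene that rose in oxidative stress but not in glutamine depletion. Treatments of 3 hours and of 10 hours differed in agent as well, so length and agent cannot be told apart, and the control's time in culture is not given in the sources used here.

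Dusp4 and Dusp10 had the most similar profiles of any pair among the 10 genes. Dusp4 (MKP-2) was at 11.2 TPM in the control, 36.4 in oxidative stress, 14.1 in osmotic stress, 12.7 in ER stress, 11.7 in hypoxia, 11.2 in glucose depletion and 28.8 in glutamine depletion. Dusp10 (MKP-5), whose product prefers JNK and p38 over ERK, was at 8.80 TPM in the control, 54.4 in oxidative stress, 14.0 in osmotic stress, 10.1 in ER stress, 13.46 in hypoxia, 9.81 in glucose depletion and 32.7 in glutamine depletion. In both genes the libraries of oxidative stress and glutamine depletion stood above all others, and the remaining 5 lay between 8.80 and 14.1 TPM. The change of Dusp10 in oxidative stress, 2.50 on the log2 scale or 6.18 times the control in TPM, was the largest of the 60 values for these genes. Dusp4 changed by 1.62 in oxidative stress and 1.29 in glutamine depletion, and Dusp10 by 1.78 in glutamine depletion.

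Dusp5, an ERK-specific nuclear phosphatase whose promoter held the CArG boxes above, was at 17.0 TPM in the control, 58.7 in oxidative stress, 15.6 in osmotic stress, 18.2 in ER stress, 9.30 in hypoxia, 24.3 in glucose depletion and 61.8 in glutamine depletion. The high libraries were again those of oxidative stress and glutamine depletion, with log2 changes of 1.73 and 1.80, and the lowest was hypoxia, with -0.80. In osmotic stress, in which Dusp1 was at its highest, Dusp5 changed by -0.12.

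Dusp6 (MKP-3), the cytoplasmic phosphatase of ERK, rose in 3 conditions, as did Spry2 and Spry4. Its level was 16.1 TPM in the control, 40.9 in oxidative stress, 40.6 in osmotic stress, 31.9 in ER stress, 13.52 in hypoxia, 25.4 in glucose depletion and 46.3 in glutamine depletion. All conditions except hypoxia were above the control, with log2 changes of 1.29 in oxidative stress, 1.28 in osmotic stress and 1.47 in glutamine depletion. The values in ER stress, 0.94, and in glucose depletion, 0.63, did not reach 2-fold.

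**Figure D2:**
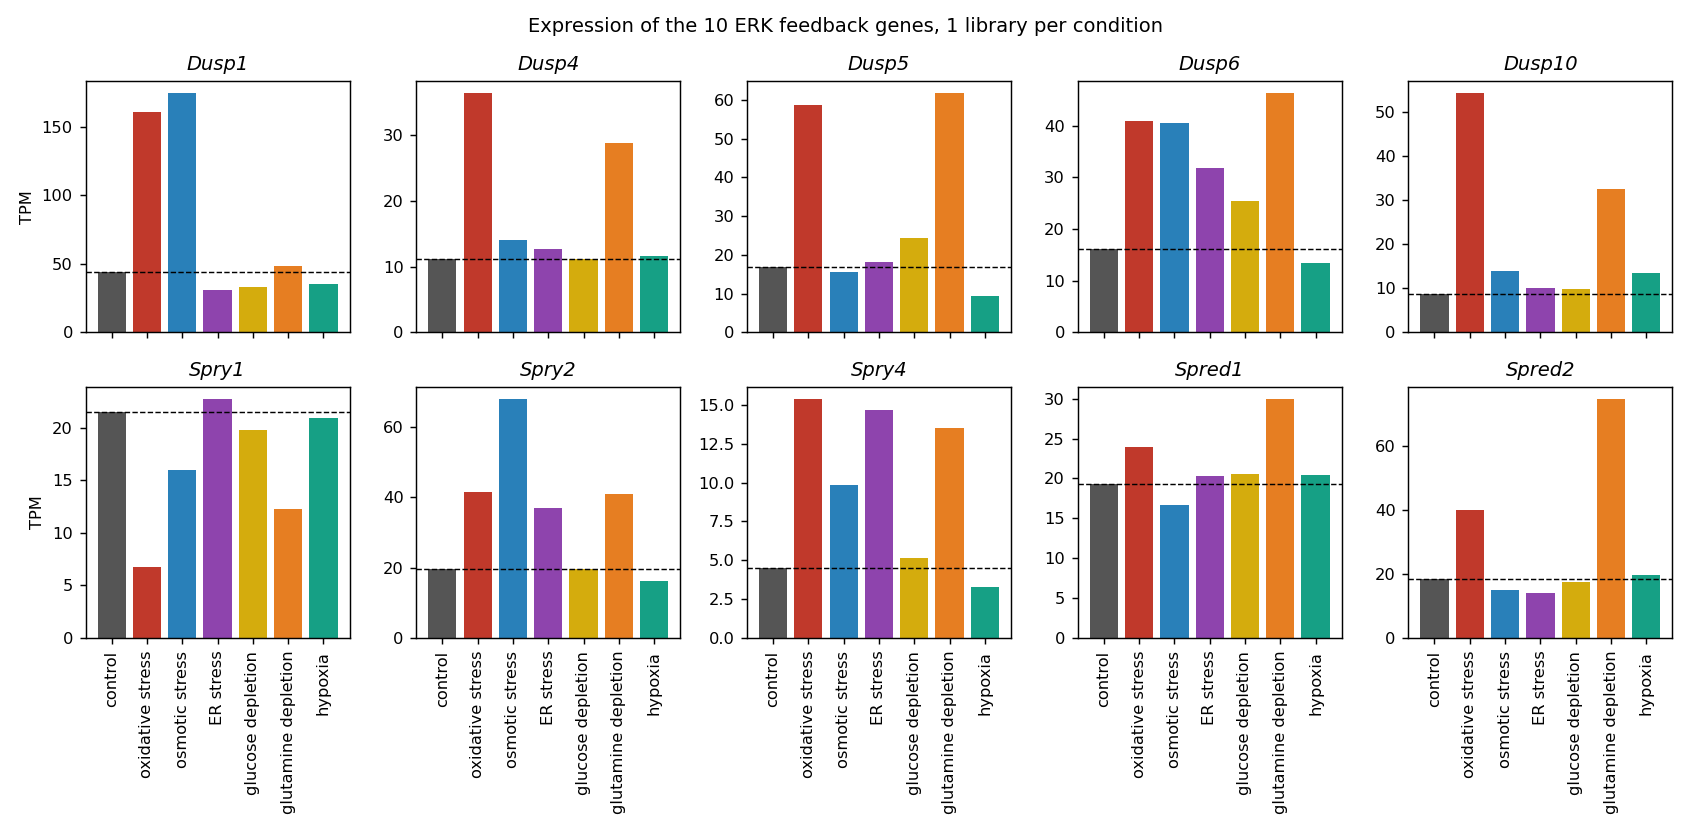
TPM (vertical axes, from 0, scaled separately for each gene) of the 10 genes in the 7 libraries (bars); the dashed line is the control, and with 1 library per condition there are no error bars. Dusp1 is high in the libraries of oxidative and osmotic stress, Dusp4, Dusp5, Dusp10 and Spred2 in those of oxidative stress and glutamine depletion, and Spry1 is lowest in oxidative stress.

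The 3 Sprouty genes did not move together. Spry2 was at 19.6 TPM in the control, 41.3 in oxidative stress, 68.0 in osmotic stress, 36.8 in ER stress, 16.3 in hypoxia, 19.7 in glucose depletion and 41.0 in glutamine depletion. Spry4 had the lowest mean of the 10 genes over the 7 libraries, 9.49 TPM. Its level was 4.50 TPM in the control, 15.4 in oxidative stress, 9.86 in osmotic stress, 14.7 in ER stress, 3.29 in hypoxia, 5.14 in glucose depletion and 13.53 in glutamine depletion. In both, the libraries of oxidative stress, osmotic stress, ER stress and glutamine depletion were above the control, and that of hypoxia was the lowest. Spry2 changed by 1.74 in osmotic stress, by 1.04 in oxidative stress and by 1.02 in glutamine depletion, the last of these just past 2-fold. Spry4 changed by 1.57 in oxidative stress, 1.51 in ER stress and 1.40 in glutamine depletion, and by 0.98 in osmotic stress, just short of 2-fold.

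Spry1 went the other way, at 21.5 TPM in the control, 6.78 in oxidative stress, 15.9 in osmotic stress, 22.7 in ER stress, 20.9 in hypoxia, 19.8 in glucose depletion and 12.3 in glutamine depletion. Its lowest libraries were those of oxidative stress and glutamine depletion, where most of the other genes were highest. The log2 change was -1.53 in oxidative stress and -0.76 in glutamine depletion, the latter short of 2-fold. In TPM, Spry1 and Spry2 were close in the control, with Spry4 below them, whereas in oxidative stress Spry1 was the lowest of the 3.

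The Spred genes also differed from each other. Spred2 was at 18.5 TPM in the control, 40.0 in oxidative stress, 15.0 in osmotic stress, 14.1 in ER stress, 19.7 in hypoxia, 17.4 in glucose depletion and 74.9 in glutamine depletion. The library of glutamine depletion stood far above the rest, at 4.05 times the control, with a log2 change of 1.96 that was the largest of the 10 genes in that condition. In oxidative stress the log2 change of Spred2 was 1.07, just past 2-fold. Spred1 was at 19.3 TPM in the control, 23.9 in oxidative stress, 16.7 in osmotic stress, 20.3 in ER stress, 20.4 in hypoxia, 20.6 in glucose depletion and 30.0 in glutamine depletion. Its highest library was also that of glutamine depletion, but its log2 change there, 0.61, was within 2-fold, and it was the 1 gene of the 10 that passed 2-fold in no condition.

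**Figure D3:**
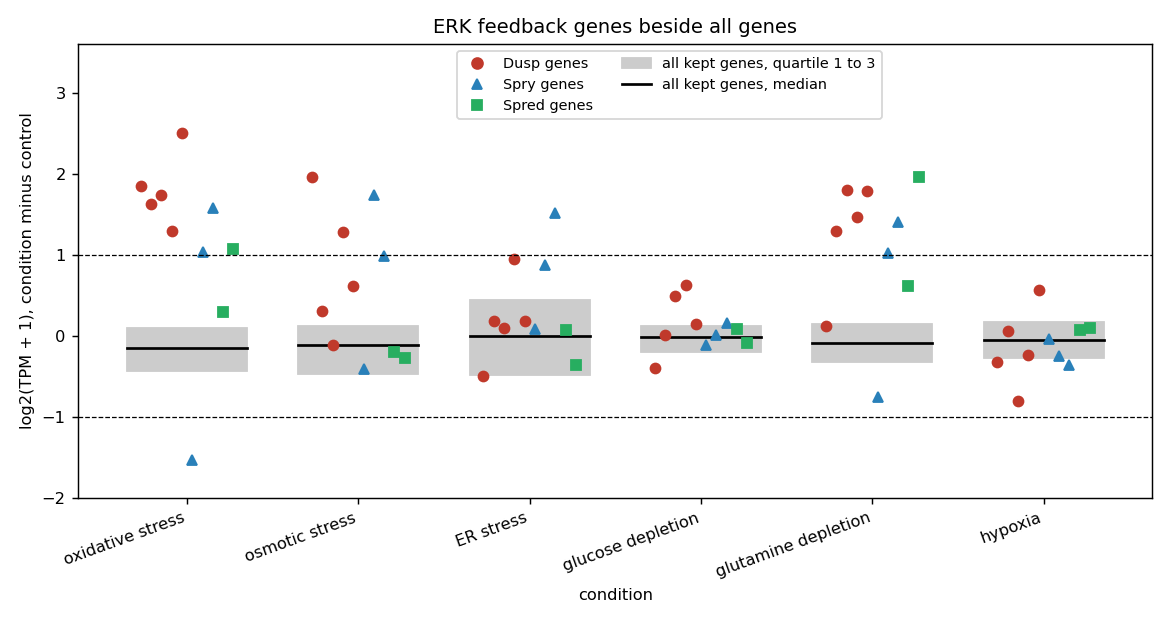
Log2 change against the control (vertical axis) of the 10 genes in each condition, beside the middle 50% (quartile 1 to quartile 3) and the median of all 12909 genes; dashed lines mark 2-fold and each point is 1 gene. In oxidative stress 8 points and in glutamine depletion 7 points lie above the upper line, while the medians of all genes lie between -0.16 and 0.00.

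Conditions of equal length were also compared directly, without the control library. At 3 hours, oxidative stress was above osmotic stress by more than 2-fold in 4 of the 10 genes and below it in 1, where 7.86% of all genes were higher and 3.90% lower. The 4 were Dusp5 (log2 difference 1.85), Dusp10 (1.88), Dusp4 (1.31) and Spred2 (1.35), and the 1 was Spry1 (-1.12). Dusp1 and Dusp6 were at nearly the same level in both libraries, with differences of -0.12 and 0.01. At 10 hours, glutamine depletion was above glucose depletion in 6 of the 10 genes and below it in 0, where 3.12% of all genes were higher and 2.37% lower. These were Spred2 (2.05), Dusp10 (1.64), Dusp5 (1.31), Dusp4 (1.29), Spry4 (1.24) and Spry2 (1.02), with Dusp6 at 0.84 and Dusp1 at 0.53. Glutamine depletion was also above hypoxia in 7 genes and below it in 0, with 4.76% of all genes higher and 5.41% lower, led by Dusp5 (2.61), Spred2 (1.87) and Spry4 (1.76).

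Among the remaining comparisons at 10 hours, ER stress was below glutamine depletion in 4 genes and above it in 0, where 9.94% of all genes were lower and 9.75% higher. The 4 were Spred2 (-2.33), Dusp5 (-1.71), Dusp10 (-1.60) and Dusp4 (-1.12), while Spry4 (0.11) and Spry2 (-0.15) were close in both libraries. ER stress was above hypoxia in 3 genes, Spry4 (1.87), Dusp6 (1.18) and Spry2 (1.13), and below it in 0, with 10.9% of all genes higher and 11.5% lower. Against glucose depletion, ER stress was higher in 1 gene, Spry4 (1.35), and lower in 0, beside 9.02% and 9.71% of all genes, a share near that of genes in general. Hypoxia was below glucose depletion in 1 gene, Dusp5 (-1.30), and above it in 0, where 2.77% of all genes were lower and 4.19% higher.

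Across the 7 libraries, levels as log2(TPM + 1) had a Pearson r of 0.98 (Spearman rho 0.96) for Dusp4 and Dusp10, 0.93 (0.75) for Spred1 and Spred2, and 0.90 (0.82) for Dusp6 and Spry4. Dusp6 and Spry2 had an r of 0.88 (0.86), and Dusp1 was closest to Spry2, at 0.73 (0.68). Spry1 had a negative r with each of the other 9 genes, from -0.96 (-0.82) with Dusp10 to -0.49 (-0.64) with Spry2. These values describe 7 libraries, each of another condition, which share the control and the scaling of TPM, and they carry no test.

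Of 3763 genes that averaged 10 TPM or more and varied by 2-fold or more, the 3 whose levels were most like those of each gene over the 7 libraries were found by Pearson r. For Dusp1 they were Hspa1b (r 0.97), a heat shock gene that shares reads with its near-identical copy Hspa1a, Csrnp1 (0.97) and Zbtb2 (0.94). By Spearman rho some pairs were much less alike, with Zbtb2 at 0.39 and Hspa1b at 0.71 to Dusp1. For the pairs named next, Zfp36 was at 0.68 to Dusp4 and 0.64 to Dusp10, and Pde8a at 0.61 to Dusp10. Other pairs had a rho as high as r or higher, such as Csrnp1 with Dusp1 and Acsl4 with Dusp6. For Dusp4 they were Dusp10 (0.98), Zfp36 (0.97), which encodes an mRNA decay factor, and Phlda1 (0.95). Dusp10 had Dusp4, Zfp36 (0.94) and Pde8a (0.93), and Dusp5 had Phlda1 (0.96), Tbc1d1 (0.96) and Wnt11 (0.96). The early response genes Zfp36 and Phlda1 each appeared for 2 of these Dusp genes. Dusp6 was most like Acsl4 (0.99), the EGF receptor ligand Ereg (0.98) and Tatdn2 (0.97). Spry2 was most like Coq10b (0.96), the kinase gene Pim1 (0.96) and Abl2 (0.96), and Spry4 most like Mapk6 (0.99), which encodes the atypical kinase ERK3, Eaf1 (0.97) and Cfap43 (0.96). Spry1 was most like Tmem230 (0.98), Oma1 (0.98) and Trappc12 (0.97). Spred1 was most like Chsy1 (0.98), the TGF-β receptor gene Tgfbr1 (0.96) and Daam1 (0.96), and Spred2 most like Enah (0.99), Tgfbr1 (0.98) and Gm22 (0.98).

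The transcripts of the kinases that these genes restrain mostly stayed within 2-fold, as did those of most genes. Of all 12909 genes, 4.24% (glucose depletion) to 19.6% (ER stress) passed 2-fold either way. The low counts in the lists of this paragraph were therefore not far from those of genes in general. Of 11 genes of the RAF-MEK-ERK cascade, 0 rose or fell in oxidative stress, osmotic stress, glucose depletion or glutamine depletion, with medians between -0.22 and -0.00. In ER stress 1 rose, Rps6ka2, an ERK-activated kinase gene, from 10.3 to 48.4 TPM, and in hypoxia 1 rose, Map2k1, which encodes MEK1, from 55.7 to 142 TPM. Of 11 adaptor and RAS genes, 0 passed 2-fold in any condition. Of 9 growth factor receptors, 1 rose in glutamine depletion, Egfr, from 18.7 to 42.2 TPM, and 2 fell in ER stress, Fgfr2 with a log2 change of -1.38 and Pdgfrb with -1.15.

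Genes that ERK is known to induce were read from a list of 17, all of which passed the filter. In oxidative stress 9 of them rose and 0 fell, with a median of 1.13, and in glutamine depletion 10 rose and 0 fell, with a median of 1.18. Of all genes, 3.94% rose and 4.85% fell in oxidative stress, and 3.21% rose and 3.21% fell in glutamine depletion. The largest changes were those of Phlda1 (2.63), Egr2 (2.60) and Hbegf (2.17) in oxidative stress and of Egr2 (3.40), Hbegf (2.50) and Phlda1 (1.97) in glutamine depletion. The others that rose in both were Egr1, Egr3, Fosl1, Ier2 and Plaur, with Ier3 added in oxidative stress and Myc and Epha2 in glutamine depletion. Etv1, Etv4, Etv5, Fos, Ccnd1 and Emp1 stayed within 2-fold in both. Among these, Fos changed by 0.53 in oxidative stress and 0.32 in glutamine depletion, and Ccnd1 by -0.50 and -0.23. In osmotic stress 4 rose, Ier3 (2.69), Epha2 (1.92), Etv1 (1.09) and Fosl1 (1.02). In ER stress 5 rose, Myc (2.20), Epha2 (1.70), Etv5 (1.29), Fosl1 (1.20) and Ier2 (1.11), and 2 fell, Egr3 (-1.25) and Emp1 (-1.25). Glucose depletion raised Egr2 (1.29) and Egr3 (1.09), and hypoxia raised Ier3 (1.66) and lowered Plaur (-1.12). Of all genes, 3.08% rose and 8.76% fell in osmotic stress, and 8.60% and 11.0% in ER stress. In glucose depletion 1.83% rose and 2.41% fell, and in hypoxia 3.57% and 2.64%, so the counts in hypoxia were near those of genes in general.

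**Figure D4:**
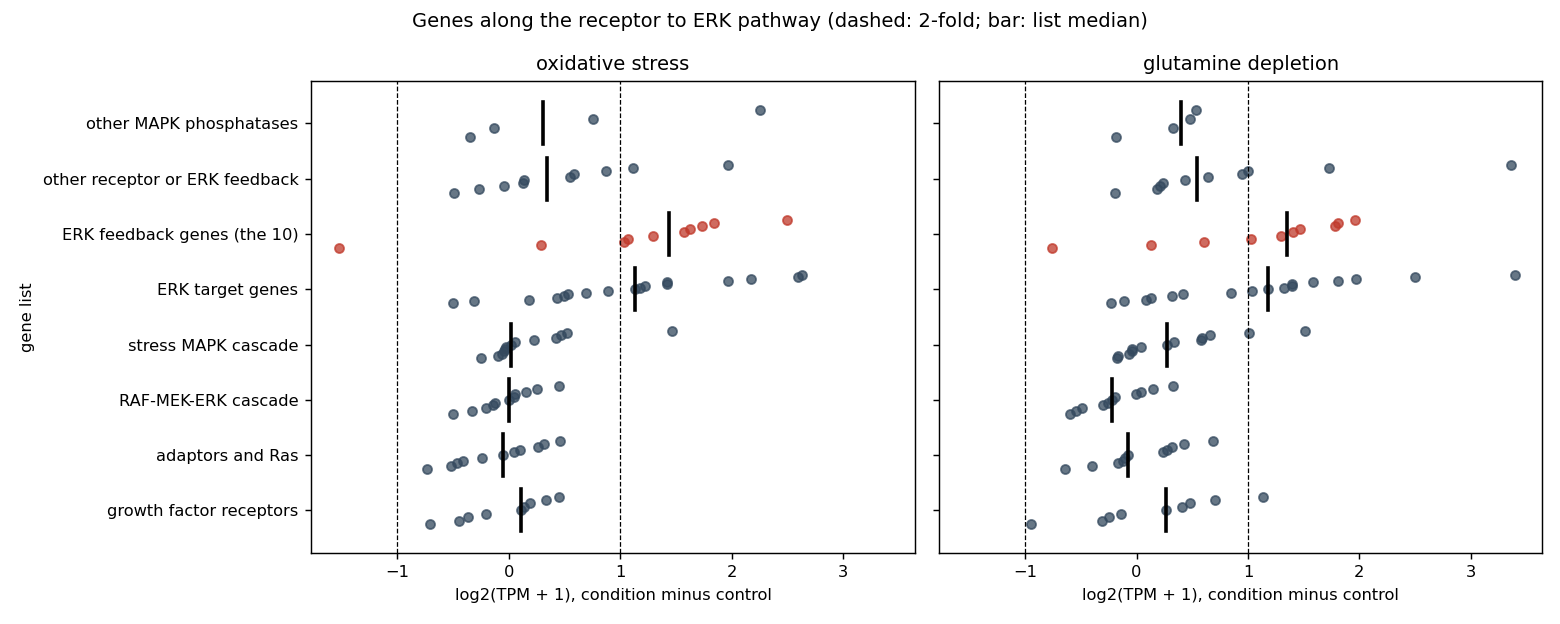
Log2 change against the control (horizontal axes) of the kept genes of 8 lists along the receptor to ERK pathway in oxidative stress and glutamine depletion; each point is 1 gene, vertical bars are list medians and dashed lines mark 2-fold. The medians of receptors, adaptors and kinase cascades lie between -0.22 and 0.27, and those of the 10 feedback genes (1.43 and 1.35) and the ERK target genes (1.13 and 1.18) beyond 1.

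Inhibitors outside the 10 genes also held members that rose. Of 10 further inhibitors of receptors and of RAS signaling, 2 rose in oxidative stress and 3 in glutamine depletion, where 3.94% and 3.21% of all genes rose. Most of the list stayed within 2-fold in both conditions, with list medians of 0.34 and 0.54. Errfi1, whose product blocks the EGF receptor, went from 28.1 TPM in the control to 113 in oxidative stress and to 298 in glutamine depletion, the latter a log2 change of 3.36. Cblb, a ubiquitin ligase gene, changed by 1.11 and 1.73 in the same libraries, and Cbl by 1.00 in glutamine depletion. In ER stress Cblb rose (1.19) and Dok1 (-1.26) and Socs3 (-1.25) fell, and in osmotic stress Dok1 fell (-1.54). Of all genes, 8.60% rose and 11.0% fell in ER stress, and 8.76% fell in osmotic stress. Of the 4 other MAP kinase phosphatase genes that passed the filter, Dusp8, whose product acts on JNK and p38, rose in oxidative stress from 4.005 to 22.8 TPM (2.25). Dusp16 rose in osmotic stress from 6.97 to 22.3 TPM (1.55), and Dusp9 in ER stress from 2.94 to 6.96 TPM (1.02), just past 2-fold. Dusp7 passed 2-fold in no condition. Of all genes, 3.94% rose in oxidative stress, 3.08% in osmotic stress and 8.60% in ER stress. Dusp2 did not pass the filter, and reached 2.15 TPM in oxidative stress from 0.387 in the control. Spred3 passed 2-fold in none, and Spry3 was at most 1.67 TPM.

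Of 13 genes of the stress kinase cascades that passed the filter, Gadd45a, an activator of a JNK and p38 kinase kinase, rose in ER stress (3.20), glutamine depletion (1.52) and oxidative stress (1.47). Map2k4 rose in glutamine depletion (1.01), and Gadd45g fell in osmotic stress (-1.51) and ER stress (-1.06). Among 12 listed genes of transcription factors of the CRE, CArG, AP-1, ETS and ATF4 sites above, 0 passed 2-fold in oxidative stress, glutamine depletion, glucose depletion or hypoxia. Factors particular to the antioxidant and hypoxia response elements were not listed. The AP-1 genes Fosl1 and Fos were not in this list but among the ERK target genes. Of these, Fosl1 rose in oxidative stress (1.42) and glutamine depletion (1.18), and Fos did in neither (0.53 and 0.32). Over all genes, the share past 2-fold either way ran from 4.24% in glucose depletion to 19.6% in ER stress. Srf, the gene of serum response factor, changed by 0.38 in oxidative stress and 0.81 in glutamine depletion. Ets2 rose in osmotic stress (1.16) and ER stress (2.24), Ets1 in osmotic stress (1.42) and Atf4 in ER stress (1.48).

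On GRCm38, by GENCODE M21, the genes lie as follows. Dusp1 (ENSMUSG00000024190) is on chromosome 17 from 26505590 to 26562128, minus strand, a span that includes transcripts from a distant start beside the start shown above. Dusp4 (ENSMUSG00000031530) is on chromosome 8 from 34807297 to 34819894, Dusp5 (ENSMUSG00000034765) on chromosome 19 from 53529109 to 53542431, Dusp6 (ENSMUSG00000019960) on chromosome 10 from 99263231 to 99267489 and Dusp10 (ENSMUSG00000039384) on chromosome 1 from 184013302 to 184075636, all on the plus strand. Spry1 (ENSMUSG00000037211) is on chromosome 3 from 37639947 to 37644598, plus strand, Spry2 (ENSMUSG00000022114) on chromosome 14 from 105891947 to 105896819, minus strand, and Spry4 (ENSMUSG00000024427) on chromosome 18 from 38586247 to 38601415, minus strand. Spred1 (ENSMUSG00000027351) is on chromosome 2 from 117121374 to 117182279 and Spred2 (ENSMUSG00000045671) on chromosome 11 from 19924375 to 20024026, both on the plus strand. Dusp1, Dusp5, Dusp10, Spry1 and Spry4 each overlap a gene on the opposite strand, and since kallisto's default settings take no account of strand, reads of such a pair cannot be told apart where they overlap. The overlapping genes of Dusp10 and Spry4 in the table were at most 1.72 TPM, and Ergic1, which overlaps the distant end of Dusp1, was at 232 to 306 TPM.

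A marker gene of each treatment was read as a check of the labels, with Hmox1 at 4.50 on the log2 scale in oxidative stress, Hspa5 at 3.44 in ER stress, Bnip3 at 4.85 in hypoxia, Txnip at -2.07 in glucose depletion, Chac1 at 1.69 in glutamine depletion and Slc5a3 at 0.86 in osmotic stress, the last within 2-fold. Several moved elsewhere too, Hmox1 (2.75) in ER stress, Txnip (-3.12) in osmotic stress, and Chac1 in ER stress (3.05), oxidative stress (1.38) and osmotic stress (-2.36), so that Chac1 is no specific mark of glutamine depletion. All 9 fibroblast markers passed the filter, and their sum ran from 9017 TPM in ER stress to 19336 TPM in osmotic stress, with 3 of the 9 falling in ER stress. The sums of 6 macrophage, 5 endothelial and 5 epithelial markers were at most 14.6, 9.07 and 11.6 TPM, 1 gene of each list, Cd68, Kdr and Krt18, passed the filter, and 3, 1 and 2 genes were below 1 TPM in every library. The part of these shifts in the values above was not tested.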

How the data were processed

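RNA-seq was read from 7 MEF libraries, 1 per condition, prepared as stranded mRNA libraries and sequenced from both ends. The authors quantified reads with kallisto (version 0.43.1 by the submitters' processing notes) at default settings against GRCm38 cDNA of Ensembl release 90, without regard to strand. The deposited TPM of a gene is the sum of its transcripts. TPM hold no read counts, so depth is unknown and no counting interval can be given; between 19819 and 21154 genes per library were above 0, and mitochondrially encoded genes took 5.09% to 9.25%.

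Changes were log2(TPM + 1) of a condition minus the control, with 2-fold as the rule, as in the study's methods. Genes averaging 2 TPM or more were kept. The 10 genes, 14 further gene lists, the motifs and the rule for named genes (all 10 genes, list genes past 2-fold or with the largest changes, and the 3 genes most alike in profile) were chosen with earlier results of these data known. The code was tested on simulated libraries with known changes. Python 3.11.15, numpy 2.4.6, pandas 2.3.3, scipy 1.17.1 and matplotlib 3.10.9 were used. Promoter sequences are from RefSeq on GRCm38.p6, and positions count from 1 at the start base, with -1 before it.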

Additional observations from a re-analysis of the deposited data

How the results depend on the processing

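Of the 60 changes of the 10 genes, 46 stayed on their side of 2-fold with pseudocounts of 0.1 and 5 TPM, changes centred on their median, mitochondrially encoded genes taken out, and the median of the 7 libraries in place of the control, and none that passed 2-fold changed sign. With a threshold of 3-fold, the count of genes past it was 4 in oxidative stress, 3 in glutamine depletion and 0 in ER stress, where 2.30%, 1.61% and 3.39% of all genes rose and 1.60%, 1.27% and 4.31% fell. With 1.5-fold it was 5 in osmotic stress, 3 in ER stress and 1 in glucose depletion, all up, and 1 in hypoxia, down. At that threshold 6.56%, 19.0%, 3.47% and 7.23% of all genes rose and 19.5%, 21.3%, 6.23% and 8.10% fell, so the counts in ER stress and hypoxia were not far from those of genes in general. With a filter at 10 TPM, which leaves out Spry4, it was 0 in ER stress. Against the median of the 7 libraries it was 6 in oxidative stress (5 up, 1 down) in place of 9 and 4 in glutamine depletion in place of 7. It was 1 in osmotic stress, 0 in ER stress and 3 in hypoxia, all 3 of them down (Dusp6, Spry2 and Spry4). In these genes that median was the value of a treated library, above the control. It was 31.9 TPM for Dusp6 and 36.8 for Spry2, both from ER stress, and 9.86 for Spry4, from osmotic stress. Such a reference lessens rises shared by most conditions, and whether the control was itself low was not tested. With this reference, the median change of the 10 genes was 0.83 in oxidative stress, from 1.43, and 0.53 in glutamine depletion, from 1.35. Spry2 and Spred2 in oxidative stress (0.91 and 0.94) and Spry2 and Spry4 in glutamine depletion (0.90 and 0.96) were within 2-fold with a pseudocount of 5 TPM. Spry4 in osmotic stress was past it with 0.1 TPM (1.11) or after centring (1.10). No paired analysis was possible because each condition has 1 library. The depth of the libraries is unknown, so counting error could not be set beside any value.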
